A study of Homo sapiens with 4 samples.

Results

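Clone 10 was one of 11 clonal populations grown from A549, a line from a human lung adenocarcinoma, in which a Cas9 lineage recorder had been running. Its members were the cells that the deposited table of alleles assigned to Clone 10, 477 of 34557 cells in all, or 1.38%. They carried 12 copies of the recorder's target site, each with its own integration barcode (intBC). None of the 12 intBCs was listed in another clone or in the 121 cells outside the clones, and 0 cell barcodes of Clone 10 were shared between libraries.

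In this recorder, Cas9 cuts a transcribed target site and the cell's repair leaves an insertion or a deletion, together called indels. An indel usually destroys the match to the guide RNA, so that it stays in the cell and passes to its descendants. Cells with the same indel at the same place can therefore be relatives, or can have acquired the same repair outcome separately. An intBC that a whole branch lacks may have been silenced or removed, and one that single cells lack may have been missed in the reading of the transcripts.

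All groups were A549 cells with Cas9-mCherry under the SFFV promoter, a GFP transcript under the EF1a promoter that held the target site, and a triple-sgRNA vector with BFP and puromycin resistance. The guides carried mismatches that slow cutting. A small pool of founders was split into 2 plates, selected with puromycin after that split, and split again into 4 final plates, with 1 library read from each. Libraries 00 and 01 came from first-split plate 0 and libraries 10 and 11 from first-split plate 1, if the first digit of a label is the plate of the first split. Each plate was thus a single culture, and an exact permutation test of 2 libraries against 2 cannot give a p below 0.333. Only target site transcripts were analysed here, so the A549 label could not be checked against marker genes.

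Clone 10 had 203 cells in library 00 and 161 in library 01 of plate 0, against 66 in library 10 and 47 in library 11 of plate 1. Its cells held a median of 102 and 92 UMIs (unique molecular identifiers, each standing for 1 transcript molecule) in plate 0, against 119.5 and 126 in plate 1. Over the whole series, libraries held 8031 to 9337 cells and 679952 to 812480 UMIs. The 477 cells gave 4277 alleles, an allele being the target site sequence kept for 1 intBC in 1 cell. The median allele had 10 UMIs, and 5.75% of alleles rested on 1 UMI. Intervals below are exact binomial (Clopper-Pearson) at 95%. They describe counting error alone, because the cells descend from shared ancestors. Where a count was 0, the limit given is instead the share that 3 counts would make, written as “up to”.

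The intBCs were numbered from 1 to 12 by the number of cells that listed them, 450 cells for intBC 1 and 159 for intBC 12. The barcodes of the copies that the results turn on are given as the deposited table names them.
intBC 1: cgcctttctatcgg
intBC 2: tcacattctaactt
intBC 5: ataggttttgcgcg
intBC 6: tctcggttgtcctg
intBC 7: tgtttgcatcgtgg
intBC 8: agcaacttcctagt
intBC 10: gatcttgcctgacg
intBC 11: cggctccatctgtt
intBC 12: gcattccccttatg

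Each target site has 3 cut sites, so Clone 10 had 36 characters, a character being 1 cut site of 1 intBC. The state of a character is the indel found there, written as its position in the target site, its size in bases and I for insertion or D for deletion. The joined sequences around the indels that separated the plates, and around the most frequent longer insertion, are shown because they are what the sequencer read as the record. Capitals mark the inserted bases, or the 5 bases that follow a deletion. Beside their deletions, 2 joins differ by a base from the target site that the authors give. The join of 113:16D has c for a, and that of 167:5D has c for t. The source of these base changes was not tested.
104:12D, intBC 6: ctttgTGGCC
111:1I, intBC 5: cgccgAaaaaa
113:16D, intBC 8: ccgacAAGCT
113:54D, intBC 7: ccgaaCTCTG
112:53D, intBC 6: gccgaATCTC
155:19D, intBC 5: ttgggTCATC
161:18D, intBC 1: cataaCGTGA
163:2D, intBC 1: taacgATCTC
167:5D, intBC 10: gacatGTTCA
167:2I, intBC 7: gatatGActctg
200:29D, intBC 10: atggaAATGC

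Most of the recorder's characters were still uncut in Clone 10: 44.6% of its 12830 detected characters carried an indel. The edited share was 44.5% and 42.8% in the libraries of plate 0, against 47.1% and 47.4% in those of plate 1. The 2 plates did not overlap, and the difference, plate 0 minus plate 1, was -3.60 percentage points (exact two-sided permutation test, p = 0.333, the smallest this design allows). The cut sites were not used alike. Cut site 2 was edited in 63.3% of the detected alleles, cut site 1 in 45.5% and cut site 3 in 24.9%. The plates differed in opposite directions at the first and second cut sites, without overlap between their libraries. Cut site 1 was edited in 42.8% and 38.6% of alleles in plate 0, against 61.0% and 59.1% in plate 1. Cut site 2 was edited in 66.4% and 65.4% in plate 0, against 54.3% and 54.6% in plate 1.

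The intBCs varied more than the libraries did. At cut site 1 the edited share ran from 15.2% of cells for intBC 2 to all 362 cells that listed intBC 8 (interval 99.0 to 100%). Only 3 states were found at that character of intBC 8, which makes it the character with the fewest states apart from cut site 2 of intBC 2. At cut site 3 the range was 9.19% for intBC 2 to 77.9% for intBC 10, with a median of 15.1% over the 12 copies. No cell kept intBC 1 uncut at every site, whereas intBC 2 was uncut at all 3 sites in 342 of its 446 cells, or 76.7%.

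**Figure D1:**
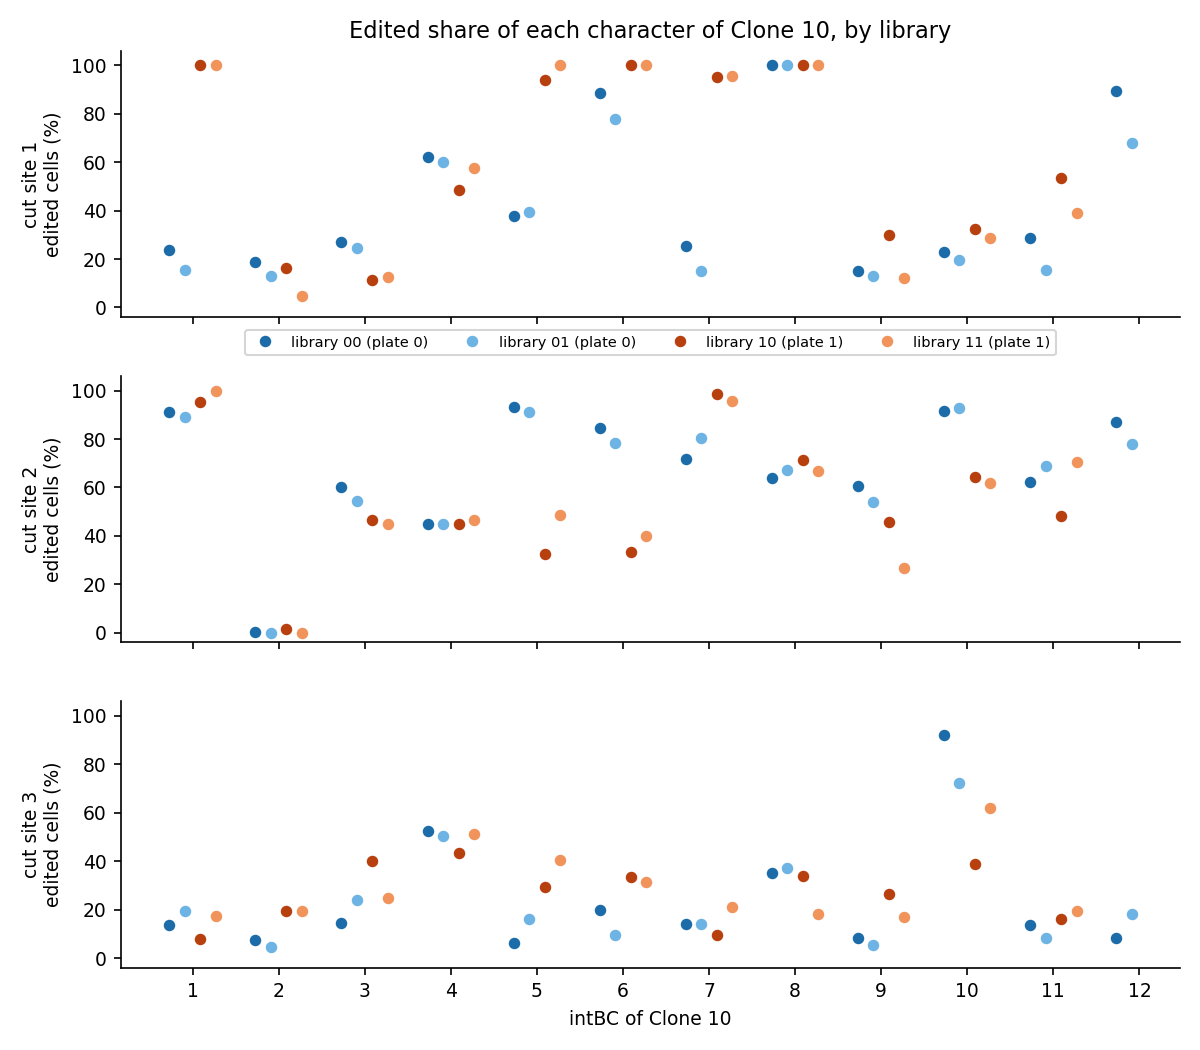
Percentage of cells with an indel (vertical axis) at cut sites 1, 2 and 3 (panels from top to bottom) of each of the 12 intBCs of Clone 10 (horizontal axis), 1 point per library, with plate 0 in blue to the left of plate 1 in orange and values from fewer than 10 cells left out. Cut site 1 of intBC 8 lies at 100% in every library, and cut site 2 of intBC 2 lies between 0% and 1.64%.

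Cut site 2 of intBC 2 was all but unused. It carried an indel in 2 of 446 cells, 0.448% (interval 0.0544 to 1.61%), against 45.2 to 91.8% for the same cut site of the other 11 intBCs of the clone. Its share was 0.521% and 0% in the libraries of plate 0, against 1.64% and 0% in plate 1. In 1 of the 2 cells the indel was 113:108D, a deletion that spans all 3 cut sites. For every copy, the share at cut site 2 counts such spanning deletions with the local indels. Among the 92 other intBCs with at least 100 cells in Clones 2 to 11, cut site 2 was edited in 20.4 to 100% of cells with a median of 80.2%, and none lay below intBC 2. Clone 1 was left out of this comparison. Its cut site 2 was edited in 0.112% of alleles, and the authors deduced that this clone had defective guides. The uncut sequence of this copy differed from the commonest one of the series by a single base, shown in capitals in an 11-base window around the cut site.
intBC 2, cut site 2: cTatatctctg
commonest, cut site 2: cGatatctctg
The difference is G2T, with positions counted from 1 at the 5′ end of the window. It stood in all 444 cells with the uncut site, namely 191 and 152 in plate 0 and 60 and 41 in plate 1, and in 2 of 167284 uncut alleles elsewhere in the series. Both of those alleles belonged to other intBCs of Clone 10. This substitution and the comparison with the other intBCs were chosen after their values were seen, and the part of the substitution in the low editing was not tested.

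Clone 10 held 750 states, of which 421 were found in 1 cell and 87 in at least 10 cells. The 10 most frequent states made up 34.5% of its 5717 indel calls. The most frequent was the deletion 161:18D at cut site 2 of intBC 1, in 307 cells. It was followed by the insertion 111:1I at cut site 1 of intBC 8 in 239 cells, the deletion 155:19D at cut site 2 of intBC 5 in 212 cells, and 112:53D of intBC 6 in 211 cells. The last removes the stretch between the first and second cut sites and so counts at both characters. Next came 200:29D at cut site 3 of intBC 10 in 196 cells and 167:5D at its cut site 2 in 193 cells, 111:1I of intBC 1 in 156 cells, the insertion 167:2I of intBC 7 in 127 cells, and 113:16D at cut site 1 of intBC 8 in 122 cells.

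These frequent states were spread over the plates very unevenly. Of the 87 states in at least 10 cells, 16 differed by 50 percentage points or more between plate 0 and plate 1, or 18.4%, where 25 of 2131 such states did in the other clones that had 20 or more cells in each plate, or 1.17%. A minimum of 10 cells admits states that hold a small share of a large clone and cannot differ by 50 points. With the minimum set to the same share of each clone's cells, 2.10%, the other clones gave 25 of 497 states, or 5.03%, an alternative chosen after seeing the data. The share was then 25.8% in Clone 5 and 5.17% in Clone 11. With the minimum of 10 cells it was 20% in Clone 5, 9.68% in Clone 11 and 0 to 1.56% in the rest. Clone 10 thus did not stand alone, since Clone 5 had the higher share under either minimum. The 16 states lay in 7 of the 12 intBCs and came from 13 indels, since 3 deletions span cut sites 1 and 2. In 2 of the 16, those of intBC 12, only 2 cells of plate 1 listed the intBC, which left 14 with at least 10 such cells in both plates. The states were picked for this difference, so no test is attached to it. Between libraries of the same plate no state reached 50 points: the largest differences were 27.4 points between 00 and 01 and 39.5 points between 10 and 11.

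Plate 1 was marked by indels that its cells shared almost completely and that plate 0 lacked or held in few cells. The deletion 104:12D of intBC 6 was in 0 of 160 and 0 of 135 cells that listed this copy in plate 0, which together allow a share of up to 1.02%, against 97.6% and 100% in plate 1. The deletion 163:2D at cut site 2 of intBC 1 was in 0 of 346 cells of plate 0, which allows up to 0.867%, against 92.2% and 92.5% in plate 1. On intBC 7, 113:54D was in 5.37% and 0% of cells in the libraries of plate 0, against 93.8% and 93.6% in plate 1. The same pattern held for 111:1I of intBC 5, in 10.2% and 3.70% of plate 0 cells, against 91.2% and 97.3% in plate 1. The insertion 111:1I of intBC 1 was in 16.8% and 12.9% in plate 0, against all 104 plate 1 cells that listed the copy. Finally, 113:16D of intBC 8 was in 14.1% and 12.2% in plate 0, against 96.4% and 97.0% in plate 1.

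The states of plate 0 were frequent but less complete. The deletion 161:18D of intBC 1 was in 88.5% and 86.5% of plate 0 cells, against 3.12% and 5% in plate 1. The insertion 111:1I of intBC 8 was in 85.2% and 87.8% in plate 0, against 3.57% and 3.03% in plate 1. Below these lay 5 further indels, and in each of them library 00 was above library 01. On intBC 6, 112:53D was in 77.5% and 64.4% of plate 0 cells, against 0 of 77 cells in plate 1 (up to 3.90%). On intBC 5, 155:19D was in 77.4% and 55.6% in plate 0, against 0 of 71 in plate 1 (up to 4.23%). The deletions of intBC 10 moved together: 167:5D was in 75.6% and 58.3% in plate 0, against 0% and 4.76% in plate 1, and 200:29D in 76.3% and 58.3%, against 6.45% and 4.76%. On intBC 12, 113:54D was in 78.8% and 51.4% of plate 0 cells. The states that came closest to the bound without reaching it were 167:2I of intBC 7, with 45.6% and 55.1% in plate 0 and 0 of 111 cells in plate 1, and 158:16D of intBC 11, with 37.9% and 59.2% in plate 0 and 0 of 97 in plate 1.

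**Figure D2:**
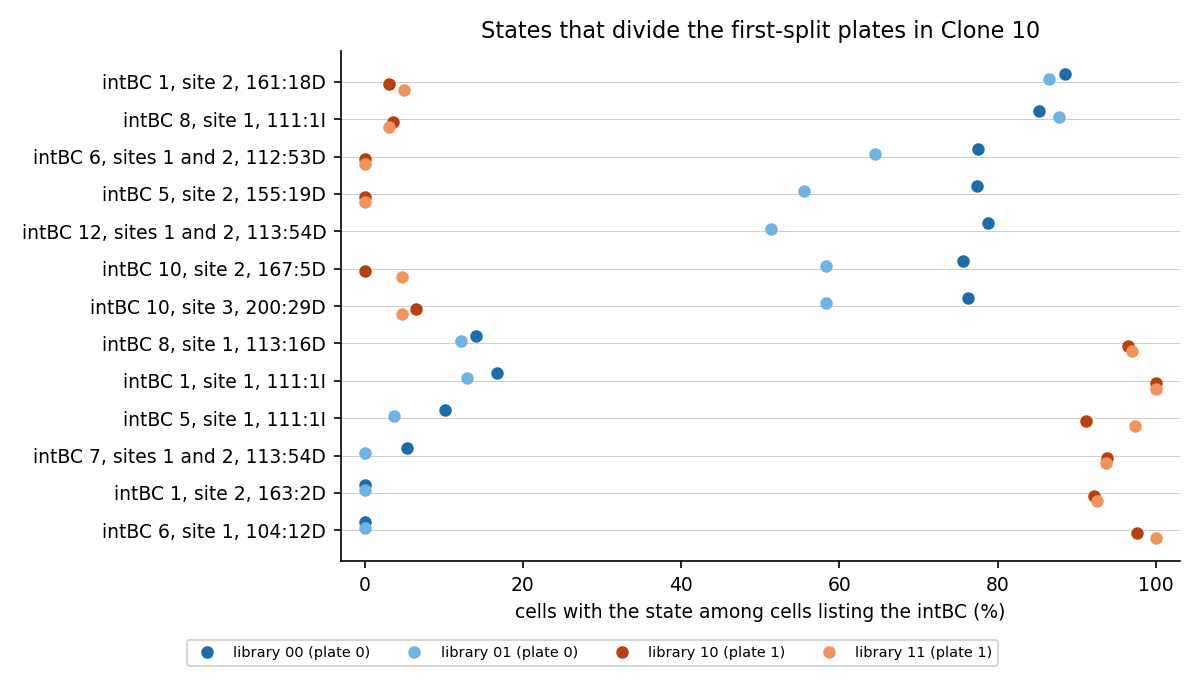
Percentage of the cells listing an intBC that carry the named state (horizontal axis), for the 13 indels of Clone 10 that differ by 50 points or more between first-split plates (rows), 1 point per library, with values from fewer than 10 cells left out. The blue points of plate 0 lie at 51.4% or more in the 7 upper rows and at 16.8% or less in the 6 lower ones, and the orange points of plate 1 lie on the other side except in the row of intBC 12, where plate 1 has too few cells.

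The states that stayed in 1 plate were also rarer elsewhere. Of the 87 states, 40 were found in both plates, 35 in plate 0 alone and 12 in plate 1 alone, with 364 and 113 cells to find them in. The indel of a state found in both plates had been seen in a median of 71.5 of the 105 intBCs outside Clone 10, and that of a state found in 1 plate in a median of 36. Among the indels that divide the plates, 111:1I was found in 80 other intBCs and 200:29D in 1. The number of cells of a state, on which both its chance of being seen in both plates and its place in this count depend, was not held equal.

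The same split appeared as a distance. The normalized allelic distance of a pair of cells adds 2 for each character with different indels and 1 for each character where an indel, an uncut site or a missing site meets another of these kinds. The sum is divided by its largest possible value. Pairs of cells from different plates lay 0.411 apart on average and pairs from the same plate 0.311, a gap of 0.101. Taken 1 library of each plate at a time, the gap was 0.101 to 0.106 (SD 0.00229, n = 4 pairs that share libraries). Library means were 0.307 within 00, 0.318 within 01 and 0.318 between them, against 0.264 within 10, 0.276 within 11 and 0.276 between them. The 4 pairings across plates gave 0.408 to 0.417. So plate 1 was the more uniform plate, and sister libraries were about as far apart as cells of a single library. Copy by copy, over the 11 intBCs listed in at least 10 cells of each plate, which leaves out intBC 12, the gap was largest for intBC 1 (0.346) and intBC 6 (0.325) and smallest for intBC 2 (0.0152) and intBC 3 (0.00545).

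At intBC 1 the cells fell into 2 groups that were defined after the values were seen. Group I carried 161:18D at cut site 2 and held 307 cells. Group II lacked it, carried 111:1I at cut site 1, and held 138 cells. The remaining 32 cells, 27 of which did not list intBC 1, had neither. Group I made up 83.3% and 83.2% of the cells in plate 0, against 3.03% and 4.26% in plate 1. Group II made up 8.87% and 12.4% in plate 0, against 93.9% and 80.9% in plate 1. IntBC 8, which the definition did not use, separated the same cells, but its states had been picked above for their difference between plates. Other copies separated them less fully. In group I of plate 0, 155:19D of intBC 5 stood in 199 of 265 cells and 112:53D of intBC 6 in 198 of 247. At cut site 1 of intBC 8, 111:1I stood in 222 of 223 group I cells of plate 0 and in 3 of 3 of plate 1, whereas 113:16D stood in all 31 group II cells of plate 0 and all 79 of plate 1.

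Beyond the states that define it, group II carried different states in plate 0 and in plate 1. The 163:2D of intBC 1 was in 0 of 38 group II cells in plate 0, against 96 of 100 in plate 1. Likewise 104:12D of intBC 6 was in 0 of 29, against 69 of 70, and 113:54D of intBC 7 in 0 of 30, against 95 of 99. These states had been picked above for their difference between plates. The first, 163:2D, was in 0 of all 346 plate 0 cells that listed its copy, and 104:12D in 0 of 295. Their 0 in group II of plate 0 was thus fixed beforehand. Group II cells of plate 0 shared other states, which were not confined to them. The deletion 163:2D at cut site 2 of intBC 3 was in 37 of 37 group II cells of plate 0, against 2 of 90 in plate 1. It was also in 24 of 268 group I cells of plate 0. The deletion 219:2D at cut site 3 of intBC 10 was in 25 of 25, against 12 of 45, and in 1 of 239 group I cells of plate 0. At cut site 3, 219:2D was also found in 83 intBCs outside Clone 10. The mean distance was 0.338 between the 2 parts of group II, 0.225 within the plate 0 part and 0.256 within the plate 1 part. Group I of plate 0 lay farther away, at 0.372 from group II of plate 0 and 0.420 from group II of plate 1, with 0.297 within itself. Its edited share was 44.9%, against 33.9% in group II of plate 0 and 46.9% in group II of plate 1, and the median UMIs per cell were 101, 73.5 and 123.5 in that order.

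Of the group I cells, 18 also carried 111:1I at cut site 1 of intBC 1, with 14 in library 00 and 0 in library 01, against 2 in library 10 and 2 in library 11. All 4 group I cells of plate 1 were therefore of this kind. The 14 cells of library 00 listed intBCs 2, 6 and 12 in 13, 14 and 7 cells, against 0 of 4 for each copy in plate 1. The deletion 219:2D at cut site 3 of intBC 4 was in 3 of 11 such cells of library 00, against 4 of 4 in plate 1. With 4 cells these values are counts only.

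**Figure D3:**
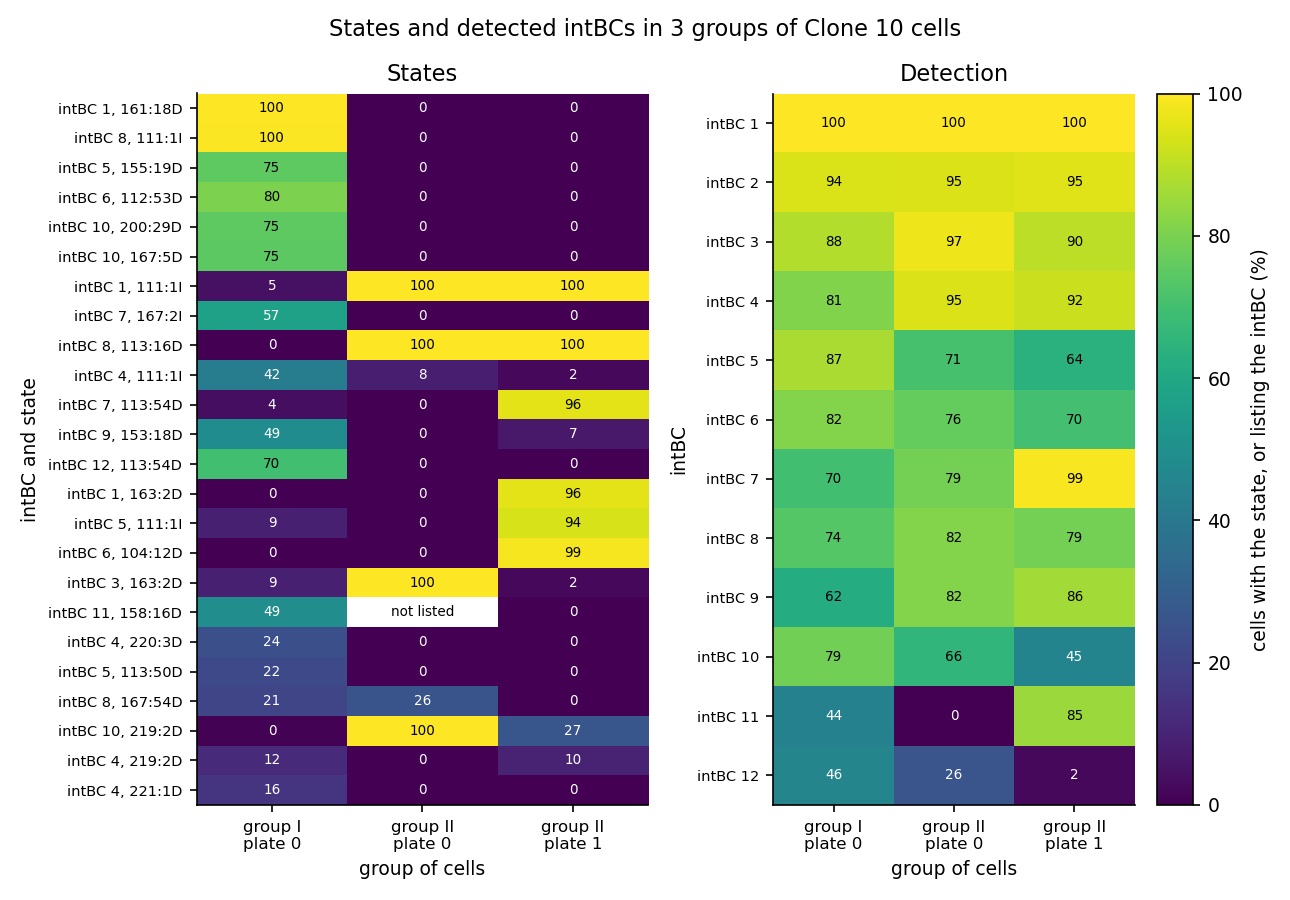
Percentage of cells (colour and printed value) that carry each of the 24 most frequent indels of Clone 10 among cells listing the intBC (left, rows), and that list each of the 12 intBCs (right, rows), for group I of plate 0, group II of plate 0 and group II of plate 1 (columns). The rows of 111:1I of intBC 1 and 113:16D of intBC 8 are shared by both columns of group II, those of 104:12D and of 163:2D of intBC 1 are high in the plate 1 column alone, and intBC 11 is listed in 0 of 38 group II cells of plate 0.

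Missing intBCs made up 25.3% of the 5724 pairs of a cell and an intBC. The share was 25.7% and 24.6% in plate 0, against 25.9% and 25% in plate 1. The plates overlapped, with a difference, plate 0 minus plate 1, of -0.295 points (exact two-sided permutation test, p = 0.667). Every library had a median of 9 intBCs per cell, and 1 cell listed all 12. This even total hid opposite differences between copies. The intBC missing from the most cells was intBC 12, in 66.7% of cells, and the one missing from the fewest was intBC 1, in 5.66%.

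The 2 copies absent most often were also the most unequal between plates. IntBC 12 was listed in 41.9% and 44.7% of plate 0 cells, against 0% and 4.26% in plate 1, where 2 of 113 cells listed it with a median of 1 UMI. IntBC 11 was listed in 32.5% and 44.1% of plate 0 cells, against 84.8% and 87.2% in plate 1. IntBC 10 was listed in 76.8% and 78.9% in plate 0, against 47.0% and 44.7% in plate 1. IntBC 7 was listed in 73.4% and 66.5% in plate 0, against 97.0% and 100% in plate 1. The listed share did not overlap between the libraries of the plates for 9 of the 12 copies, but that was so for 73.7% of the 76 intBCs of the 8 other clones with 20 or more cells in each plate, so that lack of overlap was no mark of Clone 10. IntBC 5 was listed in 87.2% and 83.9% in plate 0, against 51.5% and 78.7% in plate 1, where library 10 was the lower. IntBCs 1, 2 and 3 were listed in 85.1% or more of the cells of every library.

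Within group II the absence of intBC 11 was complete in plate 0, while that of intBC 12 was not complete in either plate. IntBC 11 was listed in 0 of 38 group II cells of plate 0, which allows a share of up to 7.89%, against 85 of 100 group II cells of plate 1 and 133 of 303 group I cells of plate 0. IntBC 12 was listed in 10 of 38 group II cells of plate 0, against 2 of 100 in plate 1. Cells were also split at the median of the UMIs of their other copies. Those at or above it listed intBC 12 in 37.3%, against 29.2% of those below, and intBC 6 in 86.2% against 69.7%. For intBC 11 the values were 48.3% and 49.8%. UMIs per cell were lower in plate 0, and the part of depth in the plate differences was not tested. Fewer transcripts of a copy and loss of the copy cannot be told apart here.

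**Figure D4:**
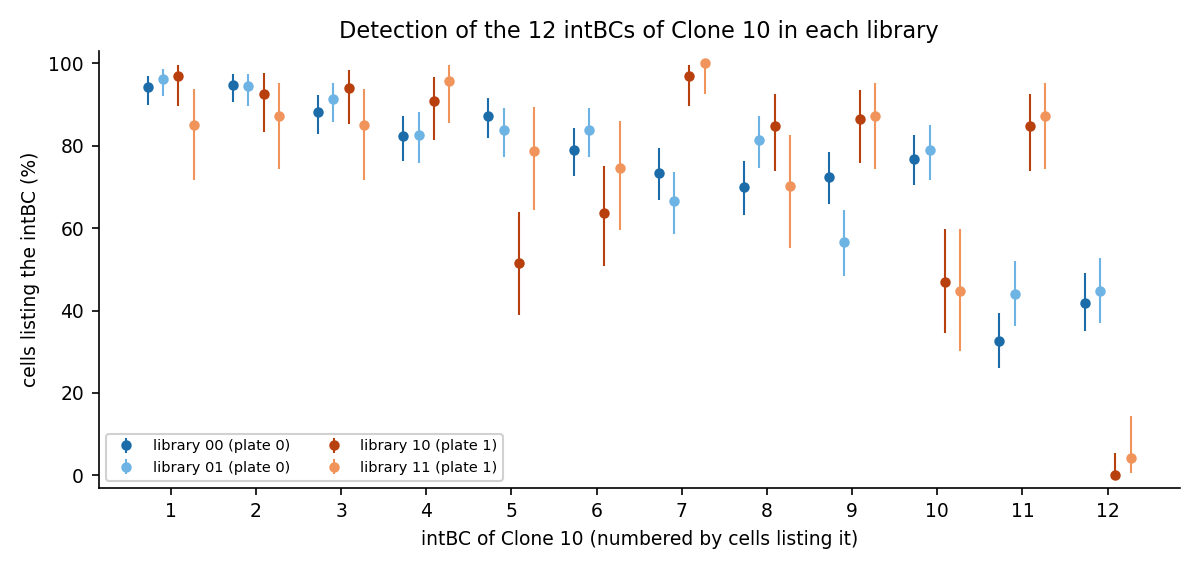
Percentage of the cells of Clone 10 that list each of its 12 intBCs (vertical axis) in each library (points, plate 0 in blue to the left of plate 1 in orange), with exact binomial 95% intervals as bars. The plates lie farthest apart for intBCs 7, 10, 11 and 12, and intBC 12 lies at 0% and 4.26% in plate 1.

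Insertions made up 19.9% of the indel calls of Clone 10, that is 1138 of 5717. The share was 19.4% and 20.0% in plate 0, against 20.5% and 21.0% in plate 1. Deletions made up 79.7%, and 20 calls combined more than 1 indel. Of the insertions, 774 lay at cut site 1, 299 at cut site 2 and 65 at cut site 3. The cut sites differed in the size of what was inserted: single bases made up 93.7% of insertions at cut site 1 and 80% at cut site 3, but 24.4% at cut site 2, where 210 of 299 were of 2 to 10 bases.

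A single outcome dominated. The insertion 111:1I, an A added beside a run of A as the joined sequence above shows, made up 723 calls, or 63.5% of all insertions, and all 723 had that junction. It was found at 11 of the 12 intBCs, intBC 12 being the exception, but 4 copies held most of it. Beside the 239 and 156 cells of intBCs 8 and 1, it was in 115 cells of intBC 4, at 34.7% and 41.4% in plate 0 against 1.67% and 2.22% in plate 1, and in 90 cells of intBC 5. The 5 insertion states in the most cells, namely these 4 and 167:2I of intBC 7, added up to 727 calls, or 63.9% of the insertions. At the other copies 111:1I was in 8 to 27 cells each.

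Against the other clones the insertion share of Clone 10 was high but not the highest. It was 19.9% in Clone 10 and averaged 10.4 ± 5.80% in the other clones (SD, n = 10), which ranged from 0.209% in Clone 7 to 20.8% in Clone 1. The difference of 9.51 points did not pass an exact two-sided permutation test (p = 0.273, where the smallest possible p is 0.0909). Clone 10 was taken up with its insertion share known, so the ranks and p-values of this paragraph are descriptions. At cut site 1 alone the share was 39.8% in Clone 10, above the 0 to 37.0% of the others (exact permutation test, p = 0.182). In Clone 1, cut site 3 gave 98.8% of the calls, so the high values of these 2 clones came from different cut sites. The rank depended on whether cells or states were counted. With each state of a character counted once, whatever its number of cells, insertions made up 12.9% in Clone 10, eighth of the 11 clones, and 13.1 ± 3.08% in the others (exact permutation test, p = 0.818). Without 111:1I the share of calls was 8.31% in Clone 10 and 6.79 ± 5.62% in the others, an alternative chosen after seeing the data.

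Nearly every cell of Clone 10 had a string of 36 characters of its own. With a missing intBC taken as a state, 465 cells were alone with their string and 12 cells formed 6 identical pairs, each within 1 library. This gave 471 strings, or 98.7 per 100 cells, the most of the 11 clones, where the others averaged 61.4 ± 34.3 (SD, n = 10) and reached 98.4 in Clone 2 (exact permutation test, p = 0.273). Clone 10 was taken up with this trait known, so its rank and p-value are descriptions. Clone 10 is smaller than most, and in draws of 477 cells Clone 2 would give 99.9 and Clone 3 99.6 distinct strings per 100 cells, so that Clones 2 and 3 came before Clone 10.

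Missing copies made many of those strings distinct. Compared only at characters detected in both cells, 337 of the 477 cells differed from every other cell, or 70.7%. The other clones averaged 16.3 ± 20.6% (SD, n = 10) at their full sizes, where the chance of a match rises with the number of cells (exact permutation test, p = 0.0909, the smallest that 1 clone against 10 allows). In draws of 477 cells, worked out in closed form as an alternative added after seeing the data, Clone 2 would give 90.6% and Clone 3 81.7%. Clone 10, at 70.7%, came after these and above the other 8. It was 41.7 points above the mean of all 10 (exact permutation test, p = 0.273). Clone 11 has only 137 cells and entered this rank and mean at its full size, with 46.0%. These p-values too are descriptions, since Clone 10 was taken up as a clone of distinct cells. The other 140 cells matched at least 1 cell, 159 had a nearest cell 1 character away, 107 had one 2 away, and 71 had none closer than 3. By library the share that differed from every other cell was 68.0% and 62.1% in plate 0, against 84.8% and 91.5% in plate 1, whose libraries also held fewer cells and more UMIs per cell. Group I of plate 0 had 299 strings in 303 cells, group II of plate 0 had 37 in 38, and group II of plate 1 had 99 in 100.

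**Figure D5:**
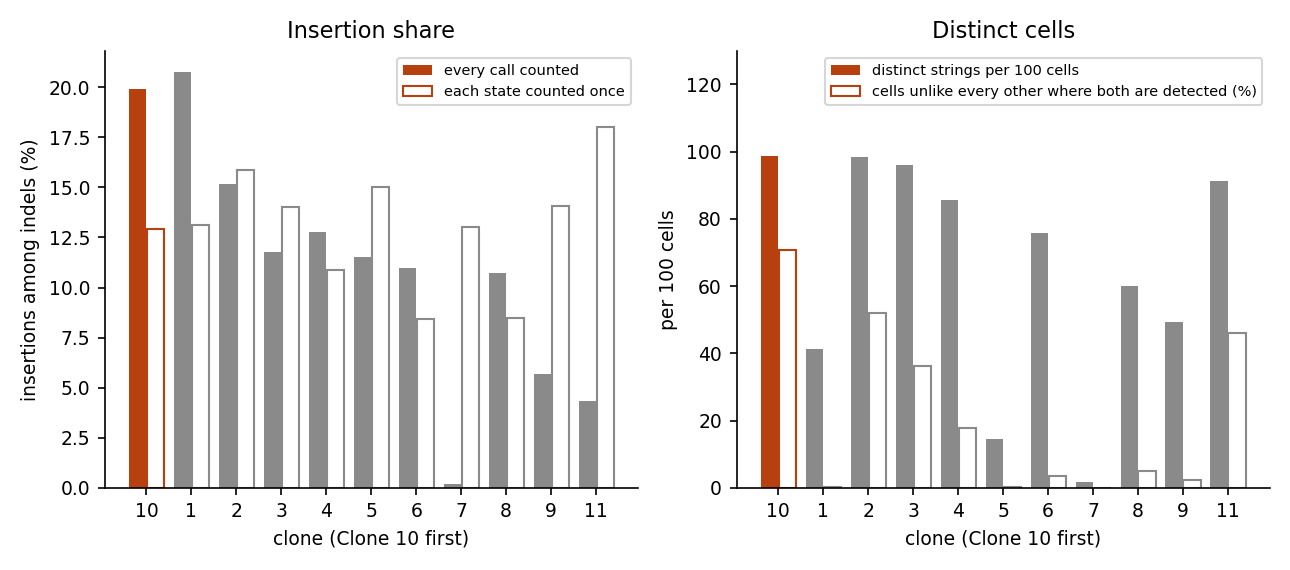
Left, insertions as a percentage of indels, counting every call (filled bars) or each state of a character once (open bars). Right, distinct strings per 100 cells (filled bars) and the percentage of cells that differ from every other cell where both are detected (open bars). Clone 10 is drawn first and in orange, the other clones in grey, each bar being 1 clone; its filled bar on the left is 19.9% and its open bar 12.9%, and its open bar on the right is 70.7%, at clone sizes of 137 to 8719 cells that are not equalized here.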

How the data were processed

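Target site transcripts were read in 4 libraries. The authors obtained cell barcodes and UMI counts with Cell Ranger 2.0.1, per the labels, aligned consensus sequences to the target site, and deposited raw, unnormalized UMI and read counts of the allele kept for each cell and intBC. They dropped cells with fewer than 10 UMIs, intBCs that fewer than 10% of the cells of their clone held, and doublets. No further doublet filter was applied. The deposited text calls at each cut site and the clone numbers were used as given, and 1 character of Clone 10 without a call was set to missing. Sequence coordinates count along the target site, not the genome.

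Clone 10 (477 cells, 23064, 16712, 8331 and 6835 UMIs in libraries 00, 01, 10 and 11) was compared between first-split plates by library, and with 10 other clones by clone, with exact two-sided permutation tests. Dividing states were in at least 10 cells and differed by 50 points. The scripts were tested on simulated data. Named items were the 12 intBCs, the 3 cut sites, the 10 most frequent states, up to 12 states with the largest plate differences, 5 insertions, and the intBCs missing most and least. Members and lists were chosen with earlier results of these data known. Alternatives are described in the closing section. The trees of 2 other clones were not used. Python 3.11.15, numpy 2.4.6, pandas 2.3.3, scipy 1.17.1 and matplotlib 3.10.9 were used.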

Additional observations from a re-analysis of the deposited data

Results flagged for a closer look

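The bases beside uncut sites enter none of the comparisons between plates or clones. Besides G2T of intBC 2, described above, they held a signal at intBC 5. At the uncut cut site 1 of intBC 5, the substitution A6C, with positions counted from 1 at the 5′ end of an 11-base window, stood in 33 of 194 uncut alleles, or 17.0%, against 133 of 214011 uncut alleles elsewhere in the series, or 0.0622%.
intBC 5, cut site 1, 33 cells: cccgaCaaatg
commonest, cut site 1: cccgaAaaatg
Both windows open with c, where the target site that the authors give has g, and this difference was not examined. The 33 cells were 17 of 110 uncut alleles in library 00 and 16 of 82 in library 01 of plate 0, against 0 of 2 in library 10 of plate 1, and library 11 had no uncut allele at this character. Of the 33 cells, 27 were all the group II cells of plate 0 that listed intBC 5, and the other 6 belonged to no group, while group I of plate 0 had it in 0 of 149 uncut alleles. Whether the substitution arose in the clone or in the reading of the transcripts was not tested.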

How the results depend on the processing

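The edited share of plate 0 minus plate 1, -3.60 points as reported, kept its sign under every alternative except the second label digit read as the first split, where it was 0.740 points. Leaving out 1 library at a time gave -4.46 to -2.75. Under that other reading of the labels, the missing share, -0.295 points as reported, was 0.952 points, the count of dividing states, 16 as reported, was 0, and the distance gap, 0.101 as reported, was 0.00399. Leaving out 1 library at a time moved the missing share between -0.804 and 0.215 points, with plate 0 higher without library 01 and without library 10. The same left-out libraries gave 14 to 18 dividing states and a distance gap of 0.0966 to 0.111. Against the other clones, the insertion share difference of 9.51 points was -0.153 points with each state counted once. It was 9.30 to 9.87 points with 1 library left out. The gap moved beyond its spread to 0.0713 when alleles below 5 UMIs were taken as missing, 0.113 with intBCs in at least 50% of cells, 0.0910 with indels counted at their first cut site only, and 0.150 with characters missing in either cell left out. Dividing states numbered 13 to 21 under the remaining alternatives, including 14 where both plates had at least 10 cells with the intBC, a requirement added after seeing the data. The difference in distinct strings stayed positive, at 28.3 to 40.0 per 100 cells, but Clones 2 and 3 came before Clone 10 in draws of equal size. With cells that list every intBC, it rests on 1 cell of Clone 10. Counted as cells that differ from every other cell, the difference was 54.4 points, and 41.7 points in draws of equal size. In the draws Clone 11 stayed at its full 137 cells, fewer than those drawn from the other clones. No paired analysis was possible because the replicate numbers of the libraries are names only. The plate comparisons rest on 2 cultures, and values from under 100 cells in plate 1 carry wide counting intervals.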
